A study of Mus musculus with 15 samples.

Results

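The elastic fibre genes measured here were 10 genes (Eln, Fbn1, Fbn2, Fbln1, Fbln2, Fbln5, Efemp1, Efemp2, Mfap4 and Mfap5), chosen by name. They were read by 16 of the 56605 distinct probes of a mouse whole-genome oligonucleotide microarray, as every probe whose design identifier was a RefSeq transcript of 1 of these genes. RNA came from mouse embryonic fibroblasts (MEFs) of 1 established clonal line, Balb/c 3T3 clone A31, grown in medium with fetal calf serum. The 15 one-colour arrays fell into 5 groups of 3, which were untreated control MEFs, MEFs treated by TNFα (10 ng/ml), MEFs treated by TGFß1 (5 ng/ml), MEFs treated by IL-1β (1 ng/ml) and MEFs treated by IL-6 (20 ng/ml) together with its soluble receptor sIL-6Rα (25 ng/ml). For the TNFα and TGFß1 arrays the exposure was 24 h by the study's account of its figures, and the labels and methods give a culture of 24 or 72 h without an assignment, so that the exposure time of the IL-1β and IL-6 arrays was not known here. A figure legend of the study describes the control, TNFα and TGFß1 replicates as independent experiments. No source used here says so for the IL-1β and IL-6 replicates, which may hold only a technical spread. All 15 arrays were fitted together with a shared estimate of spread for each probe. A technical spread in those groups would therefore enter the p-values of every comparison, also those of TNFα and TGFß1. Arrays are called by their group and the number that opens their label.

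Elastic fibres give skin, lung and vessel wall their recoil. They have a core of cross-linked elastin (Eln) laid on a scaffold of microfibrils, which are polymers of the fibrillins (Fbn1, Fbn2) decorated with microfibril-associated glycoproteins (Mfap2, Mfap5). The fibulins (Fbln1, Fbln2, Fbln5, Efemp1, Efemp2) are secreted calcium-binding proteins that sit on elastin, microfibrils or basement membranes. Fbln5 and Efemp2 bring the elastin precursor together with the microfibrils and with lysyl oxidases, the enzymes that cross-link it. Fibroblasts and smooth muscle cells are the main sources of these proteins, and the microfibrils also hold latent TGFβ through its binding proteins (Ltbp).

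A level is the log2 processed signal of a probe minus the 75th percentile of its array, so that 0 is the 75th percentile. A gene is described by its brightest probe, with its other probes given where there are any. Tests covered probes with signal well above background throughout 1 or more groups, which held for 29333 probes and for 12 of the 16 probes of 8 of the 10 genes. A difference was called where limma gave an adjusted p (q) under 0.05 over all tested probes and a fold-change of at least 1.5. The 75th percentile signal lay between 325 and 445 on the 15 arrays, between 48.3% and 54.8% of probes were well above background, and no spot was saturated. The arrays lay on 2 slides scanned separately, 8 on slide 1 and 7 on slide 2, with every group on both. The split was uneven, with most control, IL-1β and IL-6 arrays on slide 1 and most TNFα and TGFß1 arrays on slide 2. With the groups in the model, 10.8% of tested probes were called between the slides. The treatments left their marks, with Ccl5 and Saa3, a chemokine and an acute phase gene, 8.36 and 7.83 higher on the log2 scale with TNFα, Smad7, a feedback inhibitor of TGFβ signalling, 2.02 higher with TGFß1, Saa3 and Lcn2 7.43 and 6.52 higher with IL-1β, and Socs3, a feedback inhibitor of IL-6 signalling, 2.39 higher with IL-6. Of 10 fibroblast markers, 10 were well above background on all arrays, and of 5 leukocyte markers 3 were (Itgam, Csf1r and Cd3e, not called against control under any treatment) and 2, among them the pan-leukocyte marker Ptprc, were so on 0 arrays. Among the fibroblast markers, TNFα called 3 lower and 1 higher, beside 5.96% and 4.09% of all tested probes. TGFß1 called 2 lower and 3 higher, beside 10.4% and 7.51%. The medians of these 10 markers on the log2 scale were −0.44 with TNFα and −0.15 with TGFß1, beside 0.04 and 0.07. The part of other cell types in the elastic fibre values was not tested. In bulk RNA of this kind, fewer cells expressing a gene and less RNA per cell cannot be told apart.

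By brightest probe, the calls against control fell on fibulins, which make up most of the tested members, and on Mfap5. Efemp1 and Fbln5 were lower with both TNFα and TGFß1, Fbln2 was lower with TNFα, and Mfap5 and Fbln1 were lower with TGFß1. No member was called higher against control by its brightest probe under any of the 4 treatments, although Fbn1 was called higher with TGFß1 by its second probe. Over all tested probes, 4.09% were called higher with TNFα, 7.51% with TGFß1, 0.228% with IL-1β and 0.058% with IL-6. Efemp2 was called lower with TNFα by its second probe only. Elastin itself was not well above background on any array. No member was called against control with IL-1β or IL-6, beside 0.232% and 0.058% of all tested probes.

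**Figure D1:**
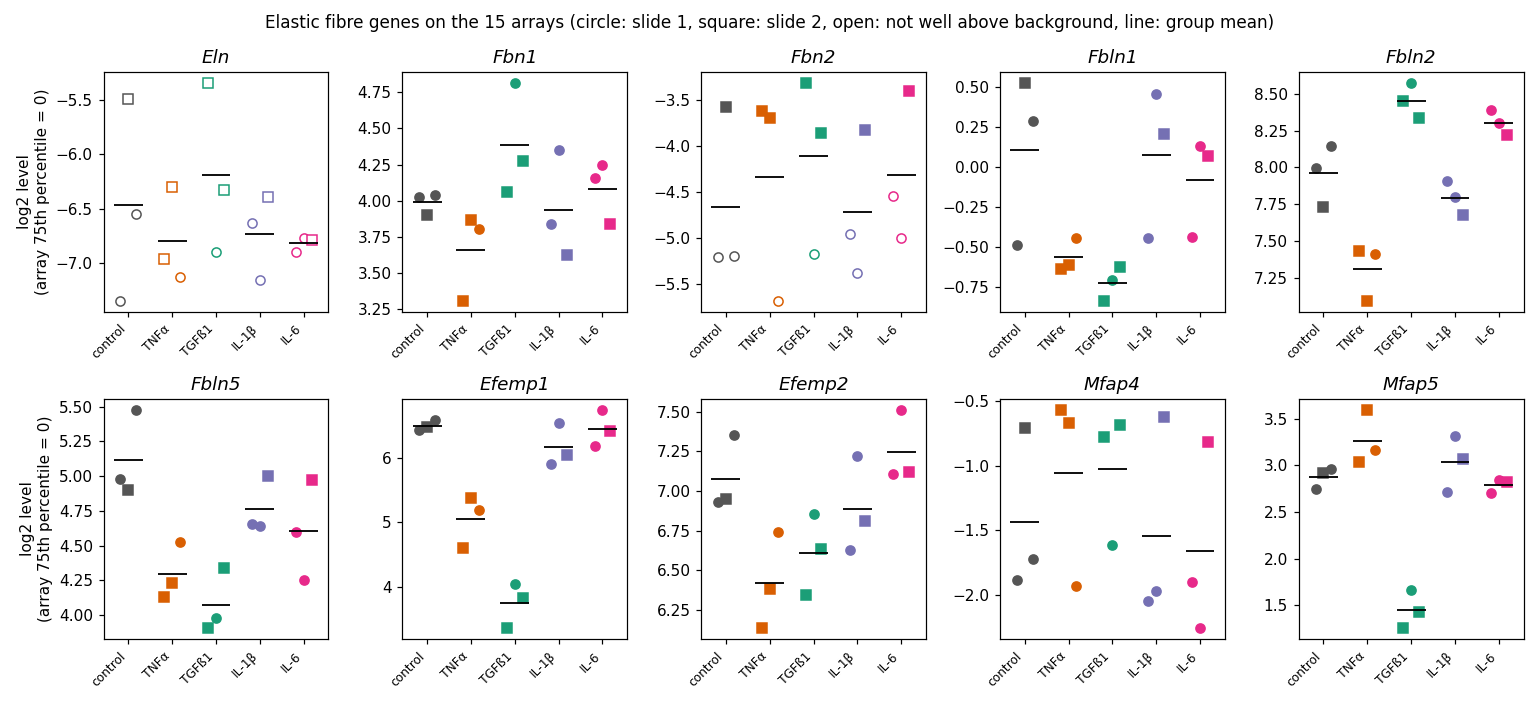
Level of each elastic fibre gene (brightest probe) on the 15 arrays, as log2 signal with the 75th percentile of the array at 0 and a separate vertical scale for each gene; circles are arrays of slide 1, squares arrays of slide 2, open symbols arrays on which the probe was not well above background, and lines group means. The 3 TGFß1 arrays lie between 3.37 and 4.05 for Efemp1 and between 1.26 and 1.67 for Mfap5, below every other array, and for Mfap4 and Fbn2 the squares lie above the circles in every group.

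Eln encodes tropoelastin, the monomer of the elastic core. Its 2 probes (transcript NM_007925) were well above background on 0 of the 15 arrays. The brighter one read −7.35, −5.49 and −6.55 on control arrays 1, 6 and 11, −6.97, −6.30 and −7.13 on TNFα arrays 4, 9 and 14, and −5.34, −6.90 and −6.33 on TGFß1 arrays 2, 7 and 12. It read −6.63, −7.16 and −6.40 on IL-1β arrays 5, 10 and 15 and −6.90, −6.77 and −6.78 on IL-6 arrays 3, 8 and 13. The groups overlapped throughout, and no fold-change is given for a probe that is not well above background in any group. Elastin RNA was thus not detectable with these probes in these MEFs, which does not show that it was absent.

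Fbn1, the main fibrillin of adult microfibrils, was well above background on all arrays with both of its probes (NM_007993). The brightest probe read 4.02, 3.90 and 4.04 in control MEFs, 3.31, 3.87 and 3.81 with TNFα, and 4.06, 4.82 and 4.27 with TGFß1. With TGFß1 it lay 0.39 above control on the log2 scale (SE 0.23, q = 0.242, n = 3 arrays a group in the limma fit), which was not called. The second probe read 3.43, 3.47 and 3.46 in control MEFs against 3.99, 4.42 and 4.30 with TGFß1. On this probe Fbn1 was called higher, by 0.79 (SE 0.15, q = 0.00253), and the 2 probes therefore gave different calls of the same sign. TNFα gave −0.33 (q = 0.409) on the brightest probe and 0.08 (q = 0.768) on the second, neither called. With IL-1β the brightest probe read 3.84, 4.35 and 3.62 and with IL-6 4.15, 4.25 and 3.84, both overlapping with control.

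Fbn2 encodes the fibrillin of developing tissue. Its brighter probe (NM_010181) was not well above background on every array of any group and was not tested. It was well above background on 1 control, 2 TNFα, 2 TGFß1, 1 IL-1β and 1 IL-6 array, which are all 7 arrays of slide 2. It read −5.68 to −4.54 on the 8 arrays of slide 1 and −3.86 to −3.32 on the 7 arrays of slide 2, without overlap. Its differences between groups were therefore smaller than the difference between slides, 1.59 (SE 0.13), and its other probe was not well above background on any array.

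Mfap5, a microfibril-associated glycoprotein that binds fibrillin, had 1 probe (NM_001347434). It read 2.75, 2.92 and 2.96 in control MEFs against 1.26, 1.67 and 1.43 with TGFß1, and the 2 groups did not overlap. Mfap5 was 1.42 lower with TGFß1 on the log2 scale, a 2.68-fold difference (SE 0.18, q = 0.000166). The signed difference was −1.19 within slide 1 and −1.57 within slide 2. With TNFα it read 3.04, 3.59 and 3.16, all above the control arrays, a difference of 0.39 (95% interval −0.01 to 0.78, q = 0.189) that was not called. It read 2.71, 3.31 and 3.07 with IL-1β and 2.71, 2.84 and 2.82 with IL-6, overlapping with control. The order of the group means was TNFα 3.26, IL-1β 3.03, control 2.88, IL-6 2.79 and TGFß1 1.45, and TGFß1 was the 1 group called against control.

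Mfap4, which binds elastin and fibrillin, read −1.89, −0.71 and −1.72 in control MEFs, −0.57, −0.67 and −1.93 with TNFα, −0.77, −1.61 and −0.69 with TGFß1, −2.05, −1.97 and −0.62 with IL-1β, and −1.90, −2.26 and −0.82 with IL-6 (NM_029568). All groups overlapped. The values split by slide instead, from −2.26 to −1.61 on slide 1 and from −0.82 to −0.57 on slide 2, a difference of 1.19 (SE 0.08, q = 5.73e-07) with the groups in the model. Within slides, TNFα minus control was −0.12 and 0.09 and TGFß1 minus control was 0.19 and −0.02. The 95% intervals against control were wide, from −0.77 to 1.54 for TNFα and from −0.74 to 1.57 for TGFß1. Of the 12 tested probes, Mfap4 was the 1 called between slides. The brightest probe of Fbn1 (−0.37, q = 0.0249), Fbln2 (−0.19, q = 0.04) and the second probe of Efemp2 (−0.37, q = 0.0155) also had an adjusted p under 0.05 in this limma fit. Only the fold-change kept these uncalled.

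**Figure D2:**
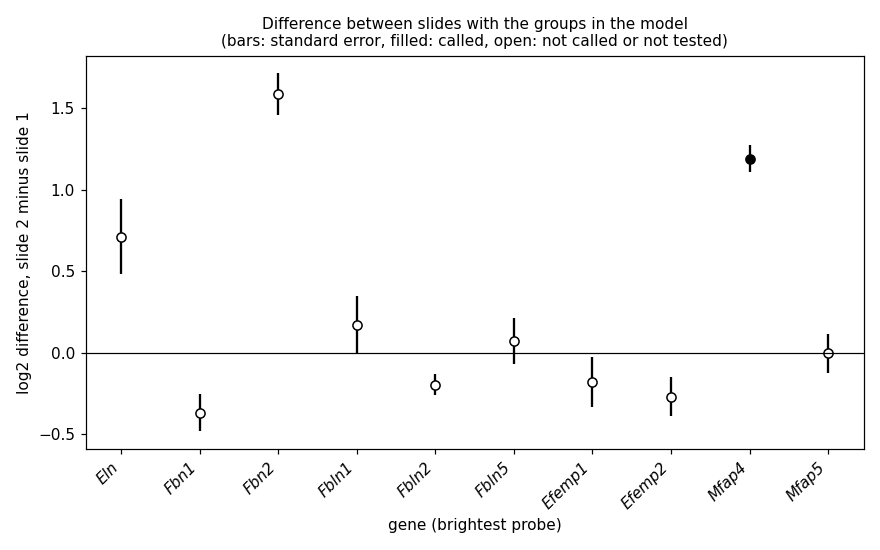
Difference between slide 2 and slide 1 for each elastic fibre gene (brightest probe) on the log2 scale, from a limma fit that also held the groups; bars are 1 standard error, the filled point was called, and the open points were not called or, for Eln and Fbn2, not tested. Mfap4 (1.19) and Fbn2 (1.59) stand apart, and the other tested members lie between −0.37 for Fbn1 and 0.17 for Fbln1.

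Efemp1 is a fibulin of fascia, eye and vessel wall that also binds the EGF receptor. It gave the largest differences of the 8 tested members with both TNFα and TGFß1. Its brightest probe (NM_146015) read 6.42, 6.48 and 6.58 in control MEFs, 4.61, 5.38 and 5.18 with TNFα, and 3.37, 4.05 and 3.83 with TGFß1. The 3 groups did not overlap. Efemp1 was 1.44 lower with TNFα on the log2 scale, a 2.71-fold difference (SE 0.24, q = 0.00193), and 2.75 lower with TGFß1, a 6.71-fold difference (SE 0.24, q = 1.18e-05). The second probe read 3.51, 3.39 and 3.55 in control MEFs, 1.24, 2.15 and 2.02 with TNFα and 0.02, 0.87 and 0.29 with TGFß1, differences of −1.68 (q = 0.00208) and −3.09 (q = 1.7e-05), both called. With IL-1β the brightest probe read 5.91, 6.53 and 6.04 and with IL-6 6.19, 6.74 and 6.42. From high to low, the group means were control 6.49, IL-6 6.45, IL-1β 6.16, TNFα 5.06 and TGFß1 3.75. The first 3 groups in this order overlapped, and the steps from IL-1β to TNFα and from TNFα to TGFß1 were called.

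Fbln5, which tethers elastin to integrins on the cell surface and is needed for elastic fibre assembly, read 4.98, 4.90 and 5.47 in control MEFs (NM_011812). It read 4.13, 4.23 and 4.53 with TNFα and 3.91, 3.98 and 4.34 with TGFß1, all below the control arrays. Fbln5 was 0.82 lower with TNFα (1.77-fold, SE 0.21, q = 0.0235) and 1.04 lower with TGFß1 (2.06-fold, SE 0.21, q = 0.00393). The TGFß1 call held in each of the 27 alternatives tried. The TNFα call was lost without TNFα array 4 (−0.74, q = 0.0997), without TNFα array 9 (−0.79, q = 0.0718) and without control array 11 (−0.64, q = 0.0956), the highest of the controls. It was also lost with only the 2 groups in the limma fit (q = 0.0616). Fbln5 read 4.65, 4.64 and 5.00 with IL-1β and 4.60, 4.25 and 4.97 with IL-6, means of 4.77 and 4.61 between those of control (5.12) and TNFα (4.30). The IL-6 value within slide 1 was −0.80 and within slide 2 0.07, against −0.51 over all arrays (q = 1.00).

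Fbln2, a fibulin that bridges elastin, fibrillin and basement membrane proteins, lay below control with TNFα and above it with TGFß1. It read 8.00, 7.73 and 8.15 in control MEFs, 7.43, 7.09 and 7.41 with TNFα, and 8.45, 8.57 and 8.33 with TGFß1, with no overlap between any of the 3 groups (NM_007992). It was 0.65 lower with TNFα (1.56-fold, SE 0.14, q = 0.00818). With TGFß1 it lay 0.49 above control (SE 0.14, q = 0.0197), a 1.41-fold difference that did not reach the fold-change of 1.5 and was not called, but without control array 11 it was called higher (0.59, q = 0.0167). The TNFα call was as close to that criterion, and it was lost with the slide in the model (−0.58, q = 0.00266), without TNFα array 9 (−0.54, q = 0.0377) and without control array 11 (−0.55, q = 0.0384), in each case by the fold-change and not by the adjusted p. With only the 2 groups in the limma fit, the TNFα call was lost by the adjusted p (q = 0.0765). IL-1β arrays read 7.91, 7.80 and 7.68, and IL-6 arrays read 8.39, 8.30 and 8.22, all above the control arrays (0.34, q = 1.00).

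Efemp2, the fibulin that recruits lysyl oxidase to the elastin precursor, read 6.93, 6.95 and 7.35 in control MEFs and 6.14, 6.38 and 6.74 with TNFα on its brightest probe (NM_021474). The 2 groups did not overlap, and the difference of −0.66 (SE 0.21, q = 0.0631) was not called. On the second probe (NM_001164352), 2.68, 2.58 and 2.72 stood against 1.61, 1.77 and 2.26, and the difference of −0.78 (q = 0.0372) was called. That call was lost without TNFα array 4 (q = 0.16), TNFα array 9 (q = 0.112), TGFß1 array 12 (q = 0.0527) or any of control arrays 1 (q = 0.087), 6 (q = 0.065) and 11 (q = 0.104), and the brightest probe was called without TNFα array 14 (−0.82, q = 0.0401). With runs of label numbers (1 to 5, 6 to 10, 11 to 15) as a block, the brightest probe was called too (−0.66, q = 0.0194). Normexp background (−0.68, q = 0.0352), quantile normalization (−0.74, q = 0.0228) and a variance trend in limma (−0.66, q = 0.0463) called it as well. With TGFß1 the brightest probe read 6.34, 6.86 and 6.64, a difference of −0.47 (95% interval −0.94 to 0.01, q = 0.133). Among the alternatives, only with quantile normalization was the brightest probe called lower with TGFß1 (−0.70, q = 0.0202). It read 6.63, 7.22 and 6.81 with IL-1β and 7.11, 7.51 and 7.12 with IL-6, both overlapping with control.

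Fbln1, a fibulin of basement membranes and elastic fibres, read −0.49, 0.53 and 0.29 in control MEFs (NM_010180). Control array 1 lay close to the treated arrays, which read −0.64, −0.62 and −0.45 with TNFα and −0.84, −0.71 and −0.63 with TGFß1. Fbln1 was 0.83 lower with TGFß1 (1.78-fold, SE 0.27, q = 0.0403), and a second probe for another transcript (NM_001347088) was called too (−0.91, q = 0.0232). This was the least stable of the calls of a brightest probe: it was lost when any 1 TGFß1 array, any 1 TNFα array, control array 6 or control array 11 was left out, with q between 0.0515 and 0.143. It was also lost with only the 2 groups in the limma fit (q = 0.0792). The values were −0.61 within slide 1 and −1.26 within slide 2. The call of the second probe was lost without TGFß1 array 2 (q = 0.0915), TGFß1 array 12 (q = 0.052), control array 6 (q = 0.0589) or control array 11 (q = 0.0835). With TNFα the difference was −0.68 (95% interval −1.28 to −0.07, q = 0.13) and was not called, and without control array 1 it was −0.97 and called (q = 0.0277). It was also called with these runs as a block (−0.68, q = 0.0223) and with slide and run together (−0.72, q = 0.00889). Arrays of IL-1β read −0.45, 0.46 and 0.21 and those of IL-6 read −0.44, 0.13 and 0.07, the same range as control.

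Over the tested members, TNFα called 3 of 8 genes, all lower (Efemp1, Fbln5, Fbln2), beside 10.1% of all 29333 tested probes, 4.09% higher and 5.96% lower. The median log2 fold-change of the 8 genes was −0.65, beside 0.04 over all tested probes. TGFß1 called 4 of 8, all lower (Efemp1, Mfap5, Fbln5, Fbln1), beside 17.9% of tested probes, 7.51% higher and 10.4% lower, and the median was −0.65, beside 0.07. Efemp1 and Fbln5 were called lower in both comparisons, which share the 3 control arrays. The TNFα count rested on single arrays, since 1 of 8 was called without TNFα array 9 or without control array 11.

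**Figure D3:**
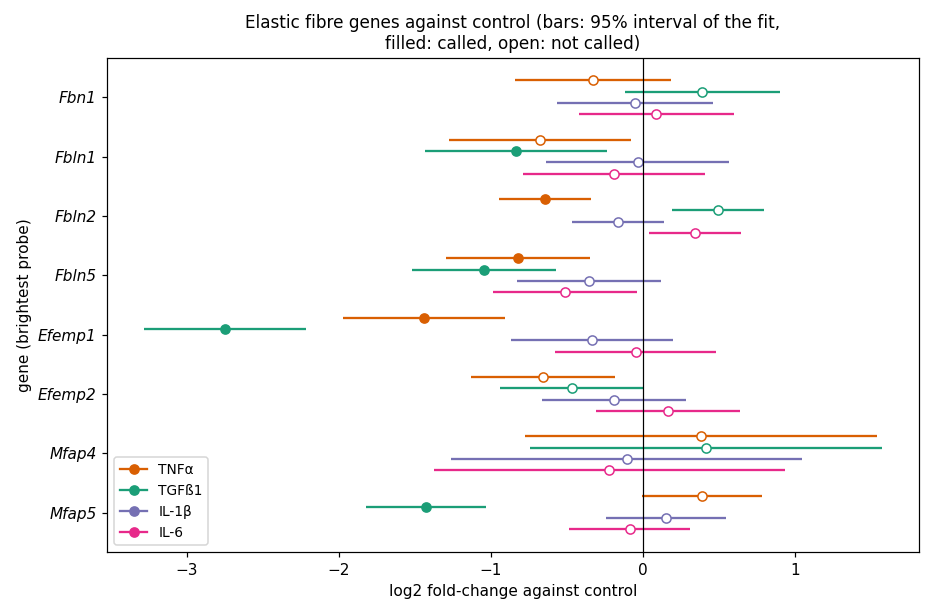
Log2 fold-change against control of the 8 tested elastic fibre genes (brightest probe) for each of the 4 treatments. Bars are 95% intervals from the limma standard error with 10 residual degrees of freedom, somewhat wider than the moderated test implies. Filled points were called (q under 0.05 and at least 1.5-fold). The 7 filled points belong to TNFα and TGFß1 and all lie below 0, from −0.65 for Fbln2 with TNFα to −2.75 for Efemp1 with TGFß1, and no point of IL-1β or IL-6 is filled.

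TNFα and TGFß1 were then compared directly, since the study contrasts a proinflammatory with a profibrotic state of the same cells. In this comparison 3 of 8 members were called, 2 higher with TNFα and 1 lower, beside 11.8% of tested probes, 6.61% higher and 5.18% lower. Mfap5 was 1.81 higher with TNFα than with TGFß1, a 3.51-fold difference (SE 0.18, q = 2.03e-05). Efemp1, lower than control in both, was 1.31 higher with TNFα than with TGFß1 (2.48-fold, SE 0.24, q = 0.00233). Fbln2 was 1.14 lower with TNFα than with TGFß1 (2.20-fold, SE 0.14, q = 9.69e-05), with differences of −1.16 and −1.13 within the slides. All 3 calls held in each of the 27 alternatives. Fbn1 was 0.72 lower with TNFα on its brightest probe (q = 0.0531, not called) and 0.70 lower on its second probe (q = 0.00602, called). The brightest probe of Fbn1 was called without IL-1β array 10 (q = 0.0371), IL-1β array 15 (q = 0.0493) or TGFß1 array 2 (q = 0.0391), and also with the slide (q = 0.00929), the run of label numbers (q = 0.0216) or both (q = 0.00025) in the model. Fbln5 and Fbln1 were not told apart between the 2 cytokines, with differences of 0.22 (95% interval −0.25 to 0.69) and 0.16 (−0.44 to 0.76).

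No elastic fibre gene was called with IL-1β or with IL-6. With IL-1β, limma called 0 of 8, beside 0.232% of tested probes, 0.228% higher and 0.00341% lower, and 0 members had an unadjusted p under 0.05, beside 3.61% of tested probes. The 8 differences ran from −0.35 for Fbln5 to 0.15 for Mfap5. With IL-6, limma called 0 of 8, beside 0.058% of tested probes, 0.058% higher and 0% lower, and 2 members (Fbln2 and Fbln5) had an unadjusted p under 0.05, beside 3.18%. The 8 differences ran from −0.51 for Fbln5 to 0.34 for Fbln2. Both counts stayed at 0 under each alternative, among them fits without a filter, without a fold-change criterion and with each array left out. The fit without a fold-change criterion was otherwise the main fit. Over the alternatives, the lowest q of Fbln5 with IL-6 in limma was 0.038, and there only the fold-change kept it uncalled. For Efemp1, whose changes with TNFα and TGFß1 were the largest, the 95% intervals were −0.87 to 0.20 with IL-1β and −0.58 to 0.48 with IL-6, neither of which reached the −1.44 measured with TNFα.

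IL-1β and TNFα, both proinflammatory, were also compared directly, on the same arrays as in the comparisons with control. Of 8 members 1 was called, Efemp1, higher with IL-1β, beside 4.69% of tested probes, 3.01% higher and 1.68% lower. Efemp1 was 1.10 higher with IL-1β than with TNFα, a 2.15-fold difference (SE 0.24, q = 0.0186), and 1.04 and 1.05 higher within the slides. Its second probe gave 1.25 (q = 0.0227). The call was lost without IL-1β array 10 (0.92, q = 0.0961) and without TNFα array 4 (0.88, q = 0.0858), which had the lowest Efemp1 level of the TNFα arrays. Fbln2 lay 0.48 above TNFα with IL-1β (q = 0.0609) and Fbln5 0.47 (q = 0.257), neither called. The doses differed between these 2 groups, at 1 and 10 ng/ml, and their exposure times could not be matched.

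Around the members, the other genes of elastic fibres were taken from lists by function, chosen with earlier results of these data known. Of 5 lysyl oxidases tested, which cross-link elastin and collagen, TNFα called 1 lower, beside 5.96% of all tested probes, and TGFß1 called 1 lower and 1 higher, beside 10.4% and 7.51%. Loxl1, the lysyl oxidase bound by Fbln5, had levels of 5.51 ± 0.17 in control MEFs, 4.82 ± 0.23 with TNFα and 4.91 ± 0.24 with TGFß1 (SD, n = 3 arrays). It was 0.69 lower with TNFα (q = 0.0155) and 0.60 lower with TGFß1 (q = 0.0189) in the limma fit. The TNFα call was lost without TNFα array 4 or 9 or control array 11, and the TGFß1 call without TGFß1 array 2 or 12 or control array 11, and also with the slide in the model (−0.51, q = 0.00661), where the fold-change was under 1.5. Loxl3 was 0.68 higher with TGFß1 (q = 0.036), a call lost without TGFß1 array 7 or 12 or control array 6. The median over the 5 genes was −0.19 with TNFα and 0.005 with TGFß1, beside 0.04 and 0.07 over all tested probes.

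Of 15 microfibril partners, which bind or process fibrillin, 11 were tested. TNFα called 4 lower and 1 higher, beside 5.96% and 4.09% of all tested probes, with a median of −0.44 beside 0.04. TGFß1 called 4 lower and 2 higher, beside 10.4% and 7.51%, with a median of −0.41 beside 0.07. Emilin2, a glycoprotein at the interface of elastin and microfibrils, had levels of 4.82 ± 0.33 in control MEFs, 3.01 ± 0.30 with TNFα and 2.28 ± 0.12 with TGFß1 (SD, n = 3 arrays). It was 1.81 lower with TNFα (q = 0.000965) and 2.54 lower with TGFß1 (q = 5.54e-05), and both calls held in each of the 27 alternatives. Mfap2, the close relative of Mfap5, was 1.43 lower with TNFα (q = 0.0353) and 1.64 lower with TGFß1 (q = 0.011). Its TNFα call was lost without TNFα array 4 or 14 or control array 6 or 11. Ltbp3, which holds latent TGFβ, was 1.15 lower with TNFα (q = 7.77e-05). Ltbp2, a fibrillin-binding relative that does not hold TGFβ, was 1.13 higher with TNFα (q = 0.00828) and 1.19 higher with TGFß1 (q = 0.00356). Adamts6, a secreted metalloprotease, was 2.38 higher with TGFß1 (q = 0.000358), from a mean of −4.22 in control MEFs, where it was well above background on 2 of 3 arrays. With normexp background the difference was 1.10, still called.

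Of 9 proteases able to cut elastin, 6 were tested, and TNFα called 2 higher (4.09% of all tested probes) and TGFß1 1 higher (7.51%), with medians of 0.20 and 0.13 beside 0.04 and 0.07. Mmp9, a gelatinase, had levels of −3.56 ± 0.59 in control MEFs and 0.75 ± 0.35 with TNFα (SD, n = 3 arrays), 4.31 higher (q = 1.2e-05) and 2.91 higher with normexp background. Ctsl, a lysosomal cathepsin, was 0.61 higher with TNFα (q = 0.0354), a call lost without any 1 TNFα array, control array 6 or 11, or IL-6 array 3. Mmp2 lay lower with TNFα and was not called, at 3.52 ± 0.46 in control MEFs and 2.55 ± 0.29 with TNFα (SD). Mmp14, a membrane-bound metalloprotease, was 0.60 higher with TGFß1 (q = 0.0243), a call lost without TGFß1 array 2 or 7 or control array 11. Of 9 receptor components of elastin and fibrillin, 8 were tested. In the limma fit TNFα called 0, beside 10.1% of all tested probes, and 0 passed an unadjusted p under 0.05, beside 26%. The median with TNFα was −0.15 beside 0.04. TGFß1 called 4 higher and 0 lower, beside 7.51% and 10.4% of all tested probes, with a median of 0.47 beside 0.07. The 4 called were integrin subunits, with Itgb3 1.97 higher (q = 2.81e-06), Itga5 1.58 higher (q = 0.000587) and Itgb1 0.84 higher (q = 0.000119). Itgav, the partner of Itgb3 in a receptor that binds the cell attachment motif of fibrillin, was the other called subunit. Of the other fibulins listed, 2 had a named probe and 0 were tested. In the limma fit IL-1β and IL-6 called 0 genes of the 4 tested lists. At an unadjusted p under 0.05, IL-1β passed 0 of 5 cross-linking enzymes, 1 of 11 microfibril partners, 2 of 6 proteases and 1 of 8 receptor components, and IL-6 passed 0, 3, 1 and 1 of them, beside 3.61% and 3.18% of all tested probes.

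**Figure D4:**
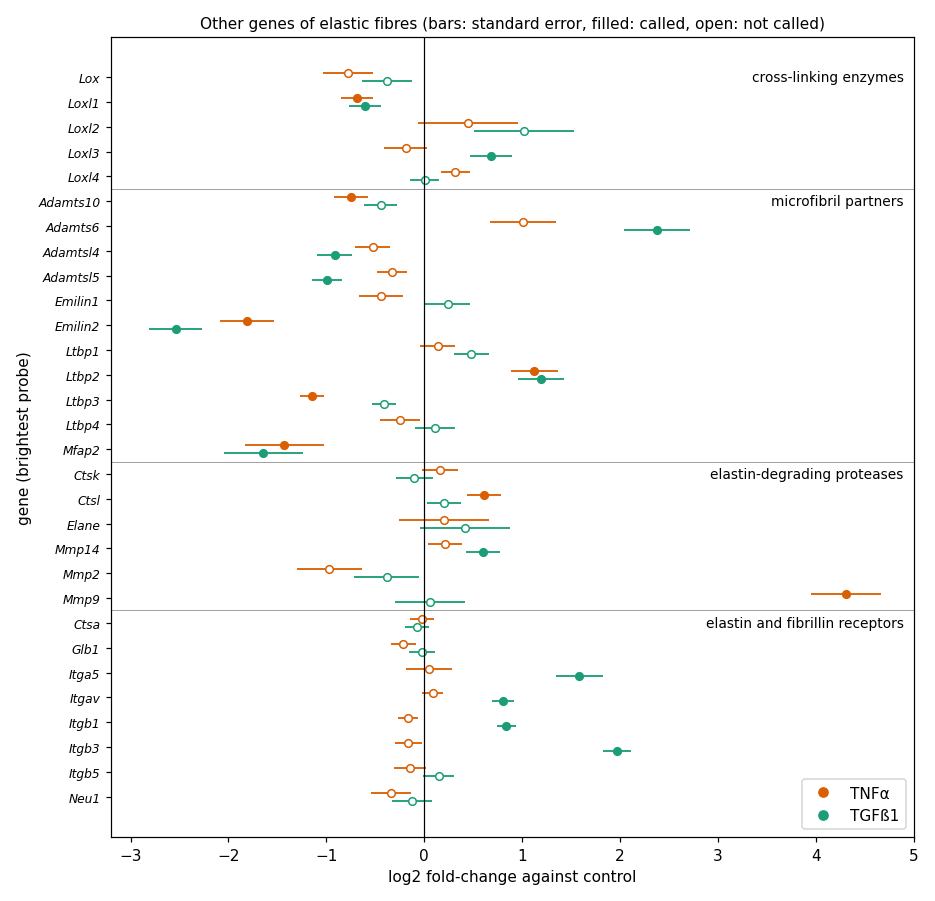
Log2 fold-change against control with TNFα and TGFß1 for the tested genes of 4 lists (cross-linking enzymes, microfibril partners, elastin-degrading proteases, elastin and fibrillin receptors), each by its brightest probe; bars are 1 standard error and filled points were called. Emilin2 and Mfap2 lie below 0 with both cytokines, Mmp9 reaches 4.31 with TNFα only among the 2 shown, and the 4 filled receptor points are all TGFß1 values above 0.

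With TGFß1, 1 smooth muscle marker and 1 epithelial marker were called higher against control, beside 7.51% of all tested probes. Of 6 smooth muscle markers, 3 were well above background on all arrays and 3 were tested. The 1 called was Cnn1, with mean levels of 0.51 in control MEFs and 2.44 with TGFß1. Of 6 epithelial markers 0 were well above background on all arrays, and 1 of the 2 tested was called. Krt8 had mean levels of −5.25 in control MEFs, where it was not well above background on any array. With TGFß1 it had −3.07 and was so on 3. Of 5 endothelial markers 1 was well above background on all arrays and 3 on none. The part of these markers was not tested either.

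The genes whose levels followed each member most closely over the 15 arrays were found among 13486 other named genes by Pearson r, as a description, since all points share arrays and groups. Efemp1 was followed by Vegfd (0.991), Cdc42ep2 (0.990) and Pmp22 (0.988), and Mfap5 by Rspo2 (0.976), Pml (0.976) and 4930447F24Rik (0.972). Fbln2 was followed by Bhlhe40 (0.962), Snai1 (0.954) and Tnfrsf21 (0.952), and Fbln5 by Chst1 (0.928), Asap1 (0.922) and Dlg5 (0.921). Efemp2 was followed by Bad (0.974), by Pcolce (0.965), an enhancer of procollagen processing, and by Loxl1 (0.960) of the cross-linking list. For Fbn1 these were Rrbp1 (0.940), Ccnd2 (0.933) and Cdc42 (0.917), and for Fbln1 Ezh1 (0.945), Cyb5r3 (0.941) and Ccpg1os (0.939). For Mfap4 they were Sprr2k (0.988), Manbal (0.987) and 1700028B04Rik (0.986), whose likeness was measured over values that split by slide.

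Promoters are shown for Efemp1, Fbln5 and Fbln1, which were called lower with TGFß1, while Mfap5, called lower too, had no window in the table used here. RefSeq start sites were matched for 6 of the 10 members, with 10 windows of 250 bases before the start (GRCm38.p6). Each was searched on both strands for the SMAD box CAGAC, for the AP-1 site TGACTCA and for the NF-kB site, motifs of the factors downstream of TGFß1 and TNFα that do not overlap with each other in the windows shown. Capitals mark matches, with a match on the other strand read as GTCTG. The windows are Efemp1 at chr11:28852955-28853204 (plus strand), Fbln5 at chr12:101818485-101818734 (minus strand, the more downstream of 2 starts) and Fbln1 at chr15:85205699-85205948 (plus strand, the more upstream of 2 starts).
Efemp1: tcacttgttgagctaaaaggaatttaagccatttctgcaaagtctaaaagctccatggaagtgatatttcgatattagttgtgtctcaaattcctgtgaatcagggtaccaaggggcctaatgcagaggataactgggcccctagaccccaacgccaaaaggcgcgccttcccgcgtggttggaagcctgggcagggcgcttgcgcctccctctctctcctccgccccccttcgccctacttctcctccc
Fbln5: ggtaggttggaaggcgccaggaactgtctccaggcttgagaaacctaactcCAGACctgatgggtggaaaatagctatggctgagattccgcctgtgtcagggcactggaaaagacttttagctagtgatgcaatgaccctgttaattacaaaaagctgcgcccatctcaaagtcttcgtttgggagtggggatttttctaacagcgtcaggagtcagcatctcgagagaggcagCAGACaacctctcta
Fbln1: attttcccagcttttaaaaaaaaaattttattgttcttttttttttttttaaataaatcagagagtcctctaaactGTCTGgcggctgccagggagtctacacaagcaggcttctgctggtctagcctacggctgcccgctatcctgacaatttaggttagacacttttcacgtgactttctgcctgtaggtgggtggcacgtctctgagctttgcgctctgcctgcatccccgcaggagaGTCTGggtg
The Efemp1 window, of the gene with the largest TGFß1 difference among the members, held 0 matches to the 3 motifs. The Fbln5 window held 2 SMAD boxes and the Fbln1 window 2, while the window of the more upstream Fbln5 start held 0. Of 32851 promoter windows of the same length, 42.2% held at least 1 SMAD box, 4.46% an AP-1 site and 7.25% an NF-kB site. Of 3 windows of Efemp2, which was not called with TGFß1 in the main fit, 1 held 2 SMAD boxes and the others 0. The window of Fbln2, lower with TNFα, and that of Fbn1 held 0 matches to the 3 motifs, and 1 NF-kB site lay in the window of the more downstream Fbln1 start. A match describes letters in a window and not binding, and a window with no match says nothing of the factor.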

How the data were processed

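Gene expression was measured in MEFs on one-colour 60-mer microarrays scanned and extracted, per the labels, with Agilent Feature Extraction 10.7.3.1. The deposited values used were the processed signal intensities (background-subtracted by the authors' extraction software) of 59305 non-control spots an array. The deposited series table held the same intensities (largest difference 0). Columns of every array were matched to samples by their labels.

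Intensities were averaged over the spots of a probe without outlier spots, taken as log2, and centred on the 75th percentile of each array. Probes were named by RefSeq transcript (33767 of 56605, 23462 genes, GRCm38.p6). Probes well above background, on at least 0.5 of their spots, on every array of 1 group or more were tested with limma 3.58.1 in R 4.3.3 (lmFit and eBayes), the package named in the study's methods. The choice of 1 fit of the 15 arrays, with 10 residual degrees of freedom and no covariates, was made here. Adjusted p-values are Benjamini-Hochberg over all tested probes. The 95% intervals take the moderated standard error with the 10 residual degrees of freedom only. They are therefore somewhat wider than the moderated test implies, and can span no change at an unadjusted p under 0.05, as for Mfap5 with TNFα. The script was tested on simulated data. The precision was limited by 3 arrays a group, and intensities give no counting error.

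Members and gene lists were chosen with earlier results of these data known. All members are named, and of each other list up to 3 called genes by size per treatment against control. Ltbp2, Itgav, Mmp2, Cnn1, Krt8, Ptprc, Itgam, Csf1r and Cd3e were added after their values were seen. Alternatives were the slide and the run of label numbers (1 to 5, 6 to 10, 11 to 15) as terms, background, normalization, filters, flagged spots, arrays in the fit, variance trend, thresholds, the probe of a gene, and leaving out each array. 1 gene of the treatment check is not reported here.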

Additional observations from a re-analysis of the deposited data

How the results depend on the processing

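The count of 4 members called with TGFß1 stayed between 3 and 4 when single arrays were left out, and the count of 3 between TNFα and TGFß1 between 3 and 4. The genes behind the TGFß1 count changed, since without control array 11 Fbln1 was lost and Fbln2 was called higher (limma, 0.59, q = 0.0167). Quantile normalization added Efemp2, lower with TGFß1 (−0.70, q = 0.0202). With the probe of lowest adjusted p for each gene, Fbn1 was called higher with TGFß1 (0.79, q = 0.00253). The count of 3 members called with TNFα was 1 at a fold-change of at least 2 and 1 with only the 2 groups in the fit, 5 with a term for the run of label numbers, and 1 to 4 without single arrays. The count of 1 for IL-1β against TNFα was 0 with only the 2 groups, 2 with the run as a term, 2 with slide and run as terms, and 0 to 1 without single arrays. For IL-1β and for IL-6 against control it was 0 in every alternative run. No value of a called member changed sign. A stricter fold-change criterion removes calls by construction, and the cause of the other shifts was not tested. The labels do not say whether a run of label numbers, which holds 1 array of each group, was 1 experiment.

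Over all tested probes, the 2948 calls with TNFα were 1586 at a fold-change of at least 2, 4522 with slide and run as terms and 1847 without TNFα array 4. The 5250 with TGFß1 were 2673 at a fold-change of at least 2 and 3472 with normexp background. The 68 with IL-1β ranged from 20 with only the 2 groups to 323 with slide and run as terms, and the 17 with IL-6 from 0 to 231 under the same settings. The 3456 between TNFα and TGFß1 were 2090 at a fold-change of at least 2, and the 1377 between IL-1β and TNFα ranged from 671 without IL-1β array 10 to 3081 with slide and run as terms. Eln and Fbn2 lay near background, which limits what can be said of them.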
